A study of Mus musculus with 6 samples.

Results

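The genes described here make and regulate cholesterol and fatty acids: the enzymes from acetyl-CoA to cholesterol, the enzymes of fatty acid synthesis, the SREBP (sterol regulatory element-binding protein) system that controls them, and the liver X receptors with a cholesterol exporter. They were listed by symbol as genes of these pathways, with earlier results of these data known. Of the 19176 rows of the expression table (19166 different symbols), 33 are members. All 33 symbols were in the table, each on 1 row.

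The samples were 6 poly(A) RNA-seq libraries of renal cortex, 3 from mice with unilateral ischemia-reperfusion injury and vehicle (UIRI) and 3 from injured mice given brucine A (BA, the labels' spelling, a compound that the study's methods call bruceine A). All mice were male wild-type C57BL/6J animals aged 8 weeks. In both groups the left renal pedicle was clamped and later released, and the right kidney was removed on the day before tissue collection. UIRI mice received daily intraperitoneal vehicle (ethanol in saline), and UIRI + BA mice received 1 mg/kg BA in that vehicle each day, until tissue was taken on day 14. No sham library was analysed here, so the comparison is between injured kidneys with and without BA, and what injury itself changed cannot be read from it.

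Cholesterol is built from acetyl-CoA through mevalonate, isoprenoid diphosphates, squalene and lanosterol. When sterols in the endoplasmic reticulum are low, Scap carries the SREBP precursors to the Golgi for cleavage and the released factors switch on the synthesis enzymes; when sterols are high, Insig proteins hold Scap back. The proximal tubule, the main cell of renal cortex, burns fatty acids as fuel, and lipid can build up in it after injury.

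Depth was 18683621, 18684293 and 38124164 reads on genes in UIRI replicates 1, 2 and 3, and 16510720, 19725912 and 20313529 in UIRI + BA replicates 1, 2 and 3. Values below are normalized counts, that is reads divided by a size factor of each library, listed in the order of replicates 1, 2 and 3, and group means are given ± SD with n = 3. Of the members, 32 had at least 100 reads in every library, and the mean of all 33 was 10 normalized counts or more. The exception was Fdps, with 18 to 58 reads.

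UIRI replicate 3 stood apart from the other UIRI libraries. Its depth was 2.04 times the median depth of the remaining 5 libraries. Over the members, UIRI replicates 1 and 2 differed by a median of 0.06 on the log2 scale, whereas UIRI replicate 3 differed from their mean by a median of 0.27. Over the 17249 rows with a mean of 10 normalized counts or more, the same medians were 0.10 and 0.21. UIRI replicate 3 was the highest UIRI library for 18 of the 33 members (54.5%, against 40.9% of those rows) and the lowest for 10. Of those 17249 rows, UIRI replicate 3 was the lowest UIRI library for 7172. Results are therefore given with it and without it.

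Differences were tested with limma on log2(normalized count + 1) over all 19176 rows, with Benjamini-Hochberg adjustment over all of them. At an adjusted p below 0.05, limma placed 0 members higher and 0 lower with BA, as it did for all rows (0% in each direction). At an unadjusted p below 0.05, 2 members were higher (all rows 5.67%) and 2 were lower (all rows 4.61%). On 33 genes those shares of all rows come to about the same number, so the members as a list did not stand out from the table. Groups did not overlap for 2 members higher with BA, Acat2 and Mvd (all rows 7.45%), and for 2 lower, Srebf1 and Insig1 (all rows 6.96%). DESeq2's Wald test on the whole reads recovered from the table called 0 of the 32 members to which it gave an adjusted p, against 1.49% of 14340 genes, and had 3 members at an unadjusted p below 0.05 (7.88% of genes). edgeR's quasi-likelihood test called 0 of the 33 members and 0% of 17155 genes, with 3 members at an unadjusted p below 0.05 (9.93% of genes).

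The median log2 fold change of the members was 0.02, beside -0.0053 for all rows, with 18 members above 0 and 15 below. Without UIRI replicate 3 the median was 0.06, with 21 members above 0 and 12 below. With upper quartile scaling it was -4.117e-05, with 16 above 0 and 17 below. For 26 members the 95% interval of limma's fold change lay within 0.5 on the log2 scale of 0, a 1.41-fold difference, and for all 33 it lay within 1. At the spread of these 6 libraries, a difference above 1.41-fold thus lay outside the interval for most members.

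Without UIRI replicate 3, limma called 2 members higher at an adjusted p below 0.05 (3.22% of all rows) and 0 lower (1.79% of all rows). At an unadjusted p below 0.05, 10 members were then higher (13.7% of all rows) and 2 lower (11.5% of all rows). The counts in both directions together were 1 without UIRI replicate 1 (all rows 4.21%), 2 without UIRI replicate 2 (6.98%), and 2, 6 and 1 without UIRI + BA replicates 1, 2 and 3 (6.62%, 9.7% and 8.41%). How many members pass a threshold therefore depends on which library is left out, as it does for the table as a whole.

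**Figure D1:**
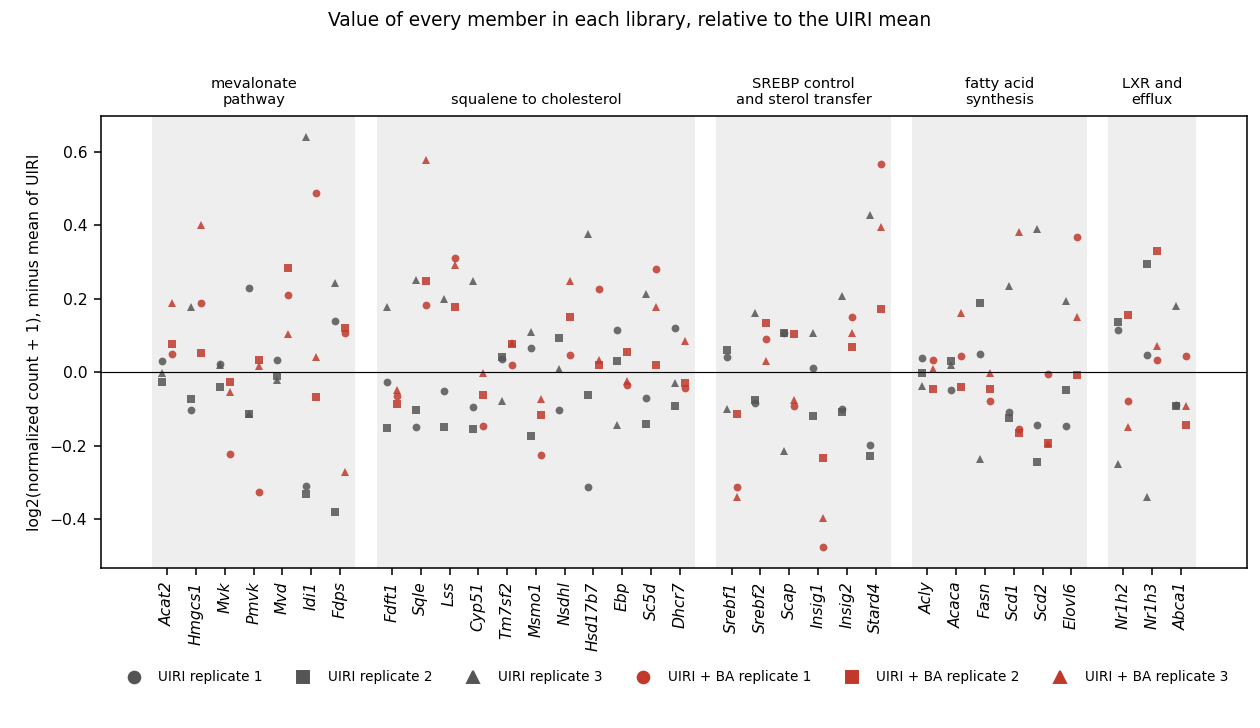
Log2(normalized count + 1) of each of the 33 members in each of the 6 libraries, minus the mean of the 3 UIRI libraries, with UIRI in grey, UIRI + BA in red and the symbol shape by replicate number. Insig1 and Srebf1 have all red symbols below the grey ones, and UIRI replicate 3 (grey triangle) lies among the red symbols for Sqle, Lss and Stard4 and above them for Idi1.

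Levels between members were compared per kb of annotated exon, taken as the union of all exons of a gene in GENCODE M21 (GRCm38), on the group means. Hmgcs1 was the highest in UIRI, with 913 normalized counts per kb, followed by Scd2 (738), Acly (727) and Abca1 (621). Scd2 and Acly lay closer together than the spread of Scd2 between UIRI libraries. At the low end, Fdps had 6.45 normalized counts per kb, Acaca 31.2 and Lss 38.5. The enzymes of the cholesterol pathway thus did not share a common level, and Fdps was listed far below its neighbours in the pathway. The low level of Fdps is uncertain. Of its 100-base stretches, 21.4% also occur in annotated transcripts of other genes, mainly Gm43738, with which it shares exons on the same strand. The other stretches occur in no other annotated gene, and how far the sharing lowers the level was not tested.

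**Figure D2:**
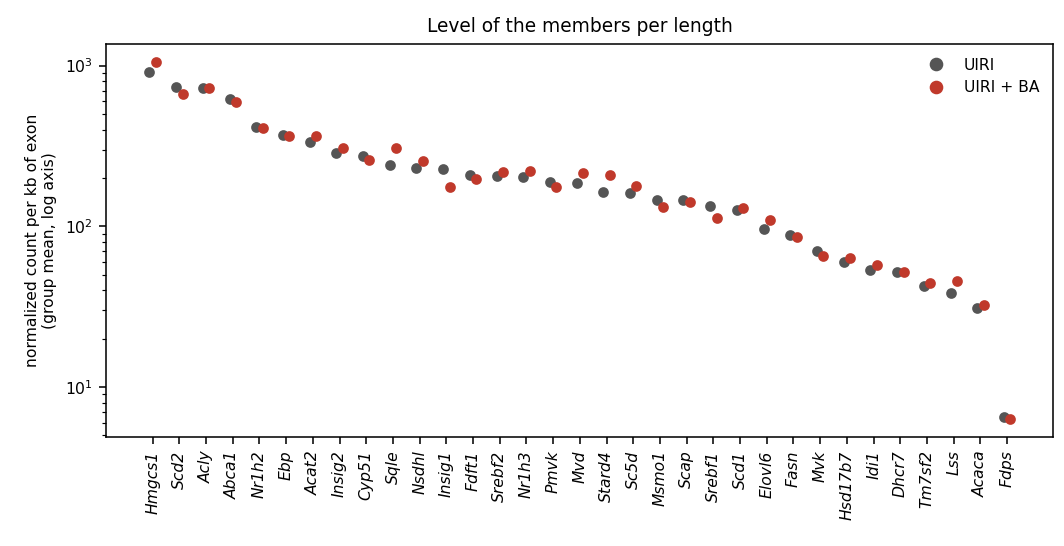
Mean normalized count per kb of exon union of each member, for UIRI (grey) and UIRI + BA (red), n = 3 libraries each, on a log axis and ordered by the UIRI level. Levels run from 913 for Hmgcs1 to 6.45 for Fdps in UIRI, and the 2 groups lie close together for every member.

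The mevalonate pathway turns acetyl-CoA into the isoprenoid units from which sterols are built. Of its 7 members, 4 had a log2 fold change above 0 and 3 below, 0 had an unadjusted p below 0.05 with limma (0 with DESeq2 and 0 with edgeR as well), and the median was 0.10. Hmgcs1 encodes the cytosolic HMG-CoA synthase and lies at chr13:119690379-119708260, plus strand. It read 3890.4, 3970.4 and 4722 in the UIRI libraries against 4759, 4335 and 5520.0 in the BA libraries (means 4194 ± 459 in UIRI and 4871 ± 601 in UIRI + BA). UIRI replicate 3 lay within the range of the BA libraries, so the groups overlapped. The log2 fold change of Hmgcs1 was 0.21 with a standard error (SE) of 0.11 (adjusted p 0.534 from limma), and 0.30 without UIRI replicate 3 (adjusted p 0.102, 0.102 to 1.00 over the alternatives). In that fit its unadjusted p was 0.0125, and without UIRI + BA replicate 3 the log2 fold change was 0.12. Part of Hmgcs1's exon sequence, 12.1%, is overlapped on the other strand by Gm48342. The libraries were strand-specific according to the labels, but whether strand was used in counting is not given in the sources used here.

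Promoters of the members were read from a RefSeq table (GRCm38.p6), in which 27 of the 33 members matched; Stard4, Sqle, Scd1, Fdps, Fdft1 and Scd2 did not. The 250 bases before each start were searched on both strands for the core of the sterol regulatory element (TCACCCCAC), to which SREBPs bind, and for the CCAAT box (CCAAT) and GC box (GGGCGG) that often accompany it. Starts are those of the RefSeq table. For Hmgcs1, Lss and Insig1 they differ from the starts of the gene positions printed here. The sterol element core occurred in 1 of the 36 member windows, that of Hmgcs1, and in 0.496% of the 32851 windows of all genes. A CCAAT box occurred in 20 of the 36 member windows (55.6%) and in 33.8% of all windows, and a GC box in 24 (66.7%) and in 32.7%. A match is a description of the letters and was not tested as a binding site, and a missing match says only that these letters are not in the window. The Hmgcs1 window (chr13:119690101-119690350, plus strand) is shown because it holds all 3 motifs, with every match in capitals. The sterol element core begins 137 bases before the start in the RefSeq table. Of its 3 CCAAT boxes, all reading in reverse (ATTGG), 2 lie before the core and 1 after it, and no matches overlap.
Hmgcs1: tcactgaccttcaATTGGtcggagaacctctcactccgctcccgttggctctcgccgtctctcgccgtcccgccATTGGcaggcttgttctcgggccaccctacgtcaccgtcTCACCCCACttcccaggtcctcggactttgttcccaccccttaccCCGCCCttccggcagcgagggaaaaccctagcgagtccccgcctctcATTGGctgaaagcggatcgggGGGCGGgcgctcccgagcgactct

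Mvd makes isopentenyl diphosphate, the building block of the pathway, by decarboxylation. It read 355, 344 and 341 in the UIRI libraries against 401, 422 and 373 in the BA libraries. Every BA library was above every UIRI library. The means were 347 ± 7.04 in UIRI and 399 ± 24.9 in UIRI + BA, and the log2 fold change was 0.20 (SE 0.09, adjusted p 0.508 from limma). Acat2, the cytosolic thiolase at the entry of the pathway, read 876, 841 and 855 in the UIRI libraries against 887, 904 and 977 in the BA libraries. These groups did not overlap either, but the distance was small, with a log2 fold change of 0.10 (SE 0.08, adjusted p 0.643 from limma). Its value is uncertain, because 28.9% of its 100-base stretches are also found in its neighbour Acat3, which read 443, 535 and 398 in the UIRI libraries against 451, 593 and 599 in the BA libraries. Tcp1, which overlaps Acat3 on the other strand, read 3326, 3387 and 3507 in the UIRI libraries against 3841, 3603 and 3783 in the BA libraries.

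Idi1, the isomerase of isopentenyl diphosphate, read 144, 142 and 279 in the UIRI libraries against 251, 170.2 and 184 in the BA libraries. UIRI replicates 1 and 2 were the lowest libraries, and UIRI replicate 3 was the highest of all 6. Its log2 fold change was 0.15 (SE 0.26) with all libraries and 0.47 (SE 0.18, adjusted p 0.139 from limma, 0.139 to 1.00 over the alternatives) without UIRI replicate 3, and it was below 0 without UIRI replicate 1, UIRI replicate 2 or UIRI + BA replicate 1. Other annotated genes hold 21.9% of its 100-base stretches, mostly Gm13502. The mevalonate kinase Mvk and the phosphomevalonate kinase Pmvk had log2 fold changes of -0.10 and -0.09, and Fdps, the farnesyl diphosphate synthase, of -0.02 with a wide interval from -0.61 to 0.58.

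Squalene synthesis and the steps from squalene to cholesterol are specific to sterols. Of these 11 members, 7 had a log2 fold change above 0 and 4 below, with a median of 0.06, and 2 were higher at an unadjusted p below 0.05 with limma, Sqle and Lss (all rows 5.67%). DESeq2, edgeR, quantile normalization and upper quartile scaling each left 1 of the 11 at that threshold. The number higher was 4 without UIRI replicate 3 (all rows 13.7%) and 1 without UIRI + BA replicate 1 (all rows 6.62% in either direction). It was 0 without UIRI replicate 1, UIRI replicate 2 or UIRI + BA replicate 3 (all rows 4.21%, 6.98% and 8.41% in either direction). Without UIRI replicate 2, 1 of the 11 was lower at that threshold. Sqle encodes squalene epoxidase, a rate-limiting enzyme of the pathway (chr15:59315077-59331192, plus strand). It read 1202, 1242 and 1586 in the UIRI libraries against 1512, 1584 and 1989.9 in the BA libraries. The means were 1343 ± 211 in UIRI and 1695 ± 258 in UIRI + BA; UIRI replicates 1 and 2 lay below all BA libraries, and UIRI replicate 3 lay just above UIRI + BA replicates 1 and 2. The log2 fold change of Sqle was 0.34, with a 95% interval from 0.03 to 0.64 (unadjusted p 0.0332, adjusted p 0.460 from limma). Without UIRI replicate 3 it was 0.46 and its adjusted p from limma 0.0493, the lowest of its alternatives, in which this p ran up to 1.00. The log2 fold change was lowest, at 0.22, without UIRI + BA replicate 3.

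Lss encodes lanosterol synthase, which folds the epoxide into the sterol ring system (chr10:76531588-76557138, plus strand). It read 399, 372 and 474 in the UIRI libraries against 512, 467 and 506 in the BA libraries. UIRI replicate 3 was above UIRI + BA replicate 2 and below the other 2 BA libraries, so the groups overlapped by this 1 pair. With means of 415 ± 52.9 in UIRI and 495 ± 24.4 in UIRI + BA, its log2 fold change was 0.26 (SE 0.11, unadjusted p 0.0426, adjusted p 0.477 from limma; unadjusted p 0.0752 from DESeq2 and 0.0515 from edgeR) and 0.36 without UIRI replicate 3 (adjusted p 0.0604 from limma, 0.0604 to 1.00 over the alternatives). The Lss promoter window (chr10:76531355-76531604, plus strand) is shown as that of an enzyme with an unadjusted p below 0.05; it holds 1 CCAAT box, in reverse, and 2 GC boxes, 1 in each direction, in capitals, and no core of the sterol element.
Lss: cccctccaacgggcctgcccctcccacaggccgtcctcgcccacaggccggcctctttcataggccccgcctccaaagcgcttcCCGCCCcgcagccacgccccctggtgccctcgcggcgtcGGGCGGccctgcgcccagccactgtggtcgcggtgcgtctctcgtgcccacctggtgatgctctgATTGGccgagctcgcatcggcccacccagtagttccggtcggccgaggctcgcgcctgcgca

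The enzymes directly before and after this pair, Fdft1 and Cyp51, had log2 fold changes below 0 with all libraries and above 0 without UIRI replicate 3. Fdft1, the squalene synthase that feeds Sqle, read 859, 787 and 988 in the UIRI libraries against 836, 824 and 845 in the BA libraries. Its BA libraries lay within the UIRI range (log2 fold change -0.07, SE 0.10, and 0.02 without UIRI replicate 3). Fdft1 overlaps exons of Ctsb on the other strand over 18.3% of its exon bases, and Ctsb was abundant, with 27659.5 ± 1945 in UIRI and 25001 ± 295 in UIRI + BA. Cyp51, which removes a methyl group from lanosterol, read 1117, 1071 and 1417 in the UIRI libraries against 1076, 1142 and 1191 in the BA libraries. The BA libraries lay within the UIRI range, of which UIRI replicate 3 was the top, and the log2 fold change of -0.07 turned to 0.05 without it. Msmo1, the methylsterol oxidase of the next steps, read 930.1, 787 and 958 in the UIRI libraries against 760.4, 819.5 and 844 in the BA libraries. The log2 fold change of Msmo1 was -0.14 (SE 0.10), -0.23 without UIRI replicate 2 and -0.08 without UIRI replicate 3. Nsdhl, the sterol dehydrogenase, and Sc5d, a sterol desaturase, were slightly higher, with log2 fold changes of 0.15 and 0.16 (adjusted p 0.587 and 0.631 from limma). Tm7sf2, Hsd17b7, Ebp and Dhcr7, which reduce or isomerize sterol intermediates, had log2 fold changes from -0.0016 for Ebp to 0.09 for Hsd17b7, and those of Hsd17b7, Ebp and Dhcr7 changed sign under at least 1 alternative.

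**Figure D3:**
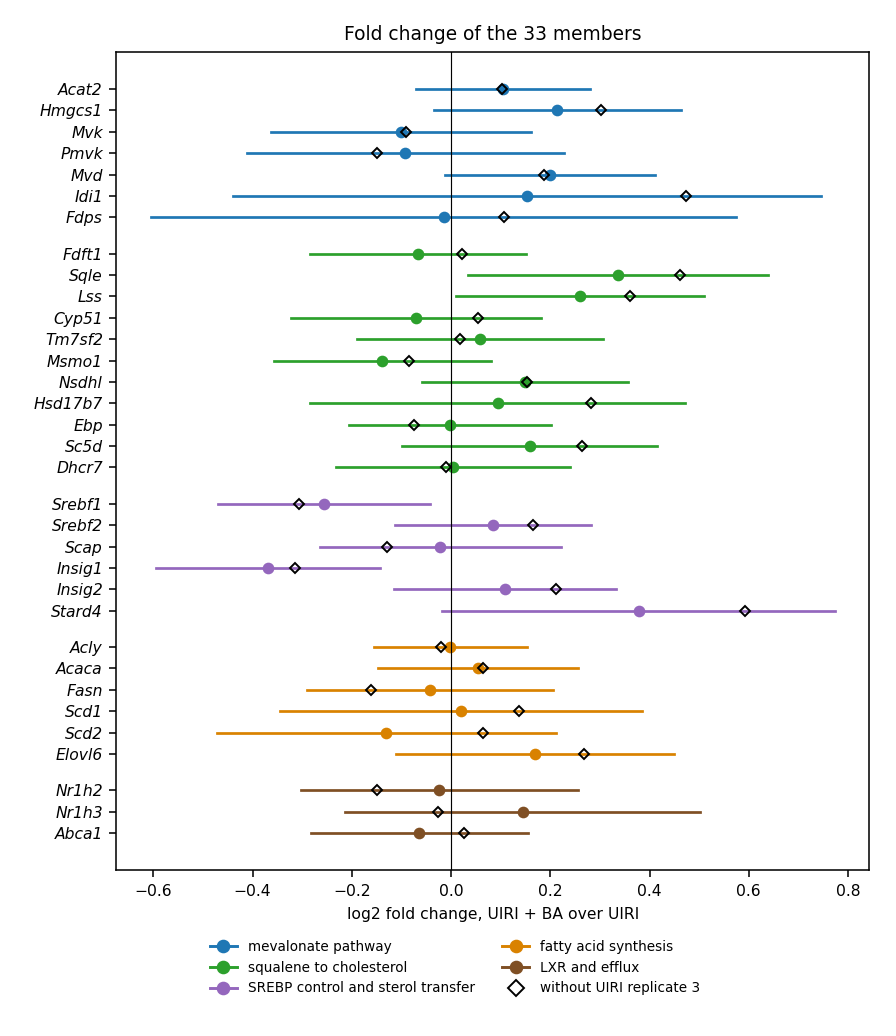
Log2 fold change of the 33 members (UIRI + BA over UIRI, limma, 3 libraries each) with its 95% interval, coloured by role, and the same value without UIRI replicate 3 as an open diamond. The intervals of Sqle, Lss, Srebf1 and Insig1 do not include 0, none of these 4 had an adjusted p below 0.05, and the diamonds of Idi1 and Stard4 lie furthest to the right of their dots.

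Genes that control the pathway included the lowest fold change among the members. Insig1 encodes an endoplasmic reticulum protein that retains Scap when sterols are high, and its gene is itself a known SREBP target (chr5:28071363-28078662, plus strand). It read 707, 646 and 756 in the UIRI libraries against 504, 597 and 532 in the BA libraries. Every BA library was below every UIRI library, with means of 703 ± 55.2 in UIRI and 544 ± 47.7 in UIRI + BA, and UIRI replicate 3 was the highest of all. The log2 fold change was -0.37, a fold of 0.774, with a 95% interval from -0.60 to -0.14 (unadjusted p 0.00491, adjusted p 0.308 from limma, 0.131 from DESeq2 and 0.309 from edgeR). Over the 14 alternatives it ran from -0.44 to -0.32 and its adjusted p from 0.0967 to 1.00, so the direction held throughout and the adjusted threshold was met in none. Insig2, its paralog, which is not driven by SREBP in the same way, read 928, 922 and 1147 in the UIRI libraries against 1102, 1041 and 1071 in the BA libraries. The highest library was again UIRI replicate 3, and the log2 fold change was 0.11 (SE 0.10, adjusted p 0.704 from limma). It was 0.21 when UIRI replicate 3 was left out (unadjusted p 0.0169), 0.06 when UIRI replicate 1 was and 0.05 when UIRI replicate 2 was.

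The ratio of Insig1 to Insig2 within a library does not depend on the size factors. It was 0.762, 0.700 and 0.659 in the UIRI libraries against 0.457, 0.573 and 0.497 in the BA libraries. The groups did not overlap, and the mean log2 ratio differed by -0.48 (BA minus UIRI). An exact two-sided permutation test gave a p of 0.1, the smallest that 3 against 3 libraries allow. It was computed as 1 of 4 ratios of paralogs, and the p is not adjusted for their number. The ratios of Scd1 to Scd2 and of Nr1h3 to Nr1h2 overlapped between the groups (exact permutation p 0.8 and 0.2). That of Srebf1 to Srebf2 is given below.

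Srebf1 encodes SREBP-1, the form that mainly drives fatty acid synthesis, and is a known target of liver X receptors (chr11:60199089-60222581, minus strand). It read 776, 786 and 704 in the UIRI libraries against 608, 697 and 596 in the BA libraries. All BA libraries were below all UIRI libraries, though UIRI + BA replicate 2 and UIRI replicate 3 lay close together. Means were 756 ± 44.7 in UIRI and 633 ± 55.2 in UIRI + BA, and the log2 fold change was -0.26 (95% interval -0.47 to -0.04, unadjusted p 0.0237, adjusted p 0.441 from limma). Over the alternatives it ran from -0.33 to -0.21 and its adjusted p from 0.0878 to 1.00. Of the 6 members of this group, 2 were lower at an unadjusted p below 0.05 with all libraries (all rows 4.61%). The number lower was 1 when UIRI replicate 1, UIRI replicate 2, UIRI + BA replicate 1 or UIRI + BA replicate 3 was left out. Of all rows, 4.21%, 6.98%, 6.62% and 8.41% were then at that threshold in either direction. Srebf2, which encodes the form that mainly drives cholesterol synthesis, read 1382, 1389 and 1637 in the UIRI libraries against 1558, 1607 and 1497 in the BA libraries. Here the BA libraries lay within the UIRI range, and the log2 fold change was 0.08 (SE 0.09). It was 0.16 without UIRI replicate 3 (unadjusted p 0.0418 from limma) and 0.04 without UIRI replicate 1. The ratio of Srebf1 to Srebf2 was 0.561, 0.566 and 0.430 in the UIRI libraries against 0.390, 0.434 and 0.398 in the BA libraries, so UIRI replicate 3 lay inside the BA range of this ratio (exact permutation p 0.2). Scap, the escort of both factors, had a log2 fold change of -0.02 (95% interval -0.26 to 0.22).

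Neither Insig1 nor Srebf1 had the 9 letters of the sterol element core in its windows. The Insig1 window (chr5:28071162-28071411, plus strand) has 1 CCAAT box in reverse and 3 GC boxes. Srebf1 has 3 windows, and the one before the start of the gene as annotated (chr11:60222582-60222831, minus strand) is shown as that of a member lower with BA at an unadjusted p below 0.05. It has 1 CCAAT box, in capitals, and 0 GC boxes. The other Srebf1 windows have 2 GC boxes each, and 1 of them also has a CCAAT box.
Srebf1: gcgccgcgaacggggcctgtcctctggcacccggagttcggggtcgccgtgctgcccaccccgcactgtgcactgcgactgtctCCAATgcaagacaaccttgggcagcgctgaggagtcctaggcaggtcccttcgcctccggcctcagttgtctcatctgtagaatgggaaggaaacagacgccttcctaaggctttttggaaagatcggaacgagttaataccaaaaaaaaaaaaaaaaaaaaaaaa

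Stard4 encodes a soluble carrier that moves cholesterol between membranes, and it too is a known SREBP target (chr18:33199355-33213862, minus strand). It read 773, 757 and 1194 in the UIRI libraries against 1314, 1000.5 and 1167 in the BA libraries. UIRI replicates 1 and 2 were far below the other 4 libraries, among which UIRI replicate 3 was the second highest. With all libraries the log2 fold change was 0.38 (SE 0.18, adjusted p 0.499 from limma), the highest among the members. Without UIRI replicate 3 it was 0.59 with an adjusted p of 0.0240 from limma, the lowest of its alternatives, where it ran up to 1.00. DESeq2 with all libraries gave an adjusted p of 0.524. The 6 members of this group thus included the lowest and the highest fold change of all members, and their median was 0.03.

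**Figure D4:**
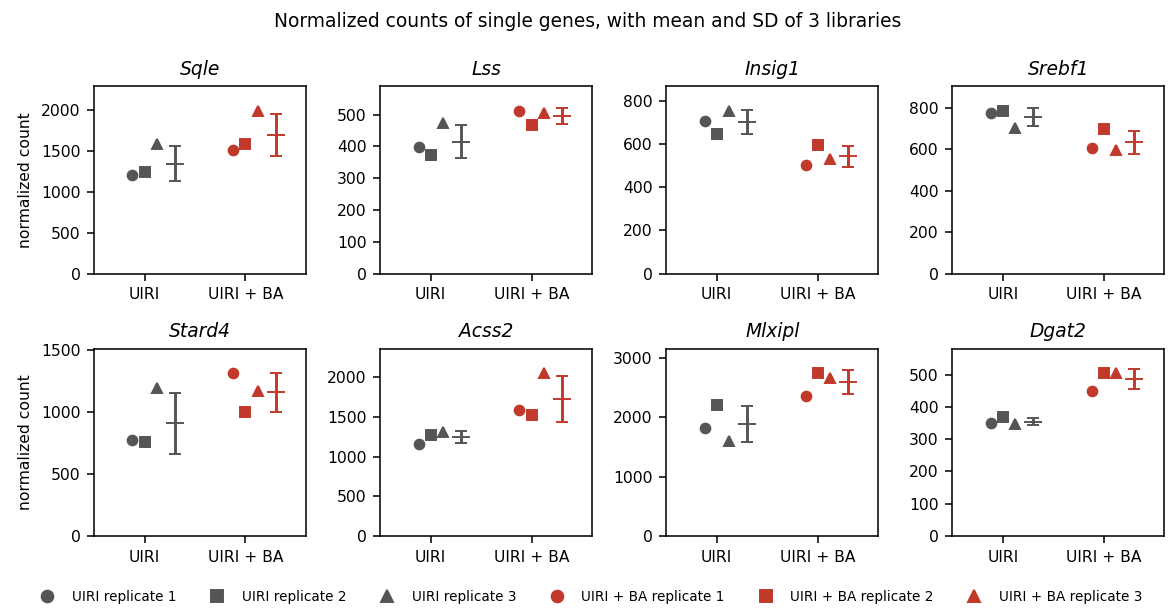
Normalized counts of Sqle, Lss, Insig1, Srebf1, Stard4, Acss2, Mlxipl and Dgat2 in each library, with the mean and SD of the 3 libraries of a group beside the points (UIRI grey, UIRI + BA red; each axis starts at 0). Insig1 and Srebf1 have all UIRI + BA points below the UIRI points, Acss2, Mlxipl and Dgat2 have them above, and UIRI replicate 3 (triangle) lies among the UIRI + BA points for Sqle, Lss and Stard4.

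Fatty acid synthesis begins with cytosolic citrate, which Acly cleaves to acetyl-CoA. Acly read 3939, 3831 and 3738 in the UIRI libraries against 3921, 3718 and 3858 in the BA libraries. All 6 libraries lay close together, and the 95% interval of the log2 fold change, from -0.16 to 0.15, was the narrowest among the members. Acaca, the carboxylase that makes malonyl-CoA, read 514, 543 and 539 in the UIRI libraries against 549, 517 and 595 in the BA libraries (log2 fold change 0.05, 95% interval -0.15 to 0.26), and 23.7% of its 100-base stretches occur in other annotated genes, mainly Gm5182. Fasn, the synthase that builds palmitate, read 996, 1097 and 817 in the UIRI libraries against 911, 933 and 961 in the BA libraries. Its BA libraries lay within the UIRI range, and the log2 fold change was -0.04 (95% interval -0.29 to 0.21). The intervals of Acly, Acaca and Fasn thus all included 0 and ended within 0.30 of it.

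Scd1 and Scd2 introduce the double bond of oleate and palmitoleate. Scd2 read 3578, 3342 and 5179 in the UIRI libraries against 3944, 3462 and 3455 in the BA libraries, and Scd1 read 569, 562 and 723 in the UIRI libraries against 551, 547 and 799 in the BA libraries. For Scd2, UIRI replicate 3 was the highest library by a wide margin, and for Scd1 UIRI + BA replicate 3 and UIRI replicate 3 were the highest pair. The log2 fold changes were -0.13 for Scd2 and 0.02 for Scd1 (SEs 0.15 and 0.16). Per kb, Scd2 was the more abundant in both groups (738 against 126 in UIRI). The desaturases share little exact sequence: 2.58% of the 100-base stretches of Scd1 and 0.879% of those of Scd2 occur in other genes. Their relatives Scd3 and Scd4 were low, with means of 7.21 ± 4.67 in UIRI and 9.25 ± 3.18 in UIRI + BA for Scd3 and 22.2 ± 2.76 in UIRI and 15.7 ± 6.37 in UIRI + BA for Scd4. Elovl6, which elongates palmitate, read 559.7, 598 and 709 in the UIRI libraries against 799, 616 and 687 in the BA libraries. UIRI + BA replicate 1 was the highest, and the log2 fold change was 0.17 (SE 0.12, adjusted p 0.638 from limma). It was 0.07 without UIRI + BA replicate 1 and 0.27 without UIRI replicate 3 (unadjusted p 0.0424 from limma). With all libraries, 3 of the 6 members of this group had a log2 fold change above 0 and 3 below, with a median of 0.0093. At an unadjusted p below 0.05 there were then 0 with limma (0 with DESeq2 and 0 with edgeR).

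Liver X receptors sense oxysterols and switch on cholesterol export and Srebf1. Nr1h3, the alpha form, read 515, 613 and 394 in the UIRI libraries against 511, 628 and 525 in the BA libraries, and Nr1h2, the beta form, read 1499, 1522 and 1163 in the UIRI libraries against 1312, 1543 and 1248 in the BA libraries. Both were lowest in UIRI replicate 3. Log2 fold changes were 0.14 for Nr1h3 (95% interval -0.21 to 0.50) and -0.02 for Nr1h2 (-0.30 to 0.26), and the value of Nr1h3 was -0.03 without UIRI replicate 3. Abca1, the cholesterol exporter that the receptors drive, read 6033, 6018 and 7269 in the UIRI libraries against 6612, 5806 and 6019.9 in the BA libraries. It was highest in UIRI replicate 3 and lowest in UIRI + BA replicate 2, with a log2 fold change of -0.06 (95% interval -0.28 to 0.15).

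Other genes of sterol metabolism (17 genes, all in the table) and of fatty acid and triglyceride metabolism (14 genes, all in the table) were listed along with the members. Among the sterol genes, 2 had an unadjusted p below 0.05, both higher, Stard5 and Gramd1b (all rows 5.67%). Without UIRI replicate 3 there were 3 higher and 2 lower (all rows 13.7% and 11.5%). There was 1 higher without UIRI replicate 1, and 1 higher and 1 lower without UIRI + BA replicate 1. The numbers were 2 higher and 1 lower without UIRI + BA replicate 2, and 0 without UIRI + BA replicate 3. Of all rows, 4.21%, 6.62%, 9.7% and 8.41% were at that threshold in either direction in these last 4 fits. Of these 17, 0 had an adjusted p below 0.05 with limma, 0 with DESeq2 and 0 with edgeR, and the median log2 fold change was -0.06. Stard5, a sterol carrier, had a log2 fold change of 0.24 (SE 0.08, adjusted p 0.397 from limma). Gramd1b, which moves cholesterol from the plasma membrane to the endoplasmic reticulum, read 1519, 1797 and 2228 in the UIRI libraries against 2836, 2069 and 2693 in the BA libraries. Among UIRI libraries replicate 3 was the highest, and it exceeded UIRI + BA replicate 2. The log2 fold change was 0.46 with all libraries (SE 0.16, adjusted p 0.403 from limma) and 0.60 without UIRI replicate 3 (adjusted p 0.0378; 0.0378 to 1.00 over the alternatives). Of the remaining 15, 13 had a log2 fold change below 0, among them the exporter Abcg1 (-0.16) and the lysosomal carrier Npc2 (-0.19), and 0 of them an unadjusted p below 0.05.

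Among the fatty acid genes, 9 of 14 had a log2 fold change above 0 and 5 below, with a median of 0.08 and a lowest value of -0.25 for Thrsp. Of the 14, 5 had an unadjusted p below 0.05, all higher with BA: Acss2, Me1, Mlxipl, Dgat2 and Fads2. Of all rows 5.67% were so, but the list was drawn up with earlier results of these data known. For the same 5 genes every BA library was above every UIRI library (all rows 7.45%), which rests on the same values as their p. The number at an unadjusted p below 0.05 was 4 with DESeq2, quantile normalization or upper quartile scaling. It was also 4 without UIRI replicate 1, UIRI replicate 2 or UIRI + BA replicate 3 (all rows 4.21%, 6.98% and 8.41% in either direction). Without UIRI replicate 3 it was 6 (all rows 13.7%). With all libraries limma gave 0 of the 14 an adjusted p below 0.05, edgeR 0 and DESeq2 3 (1.49% of genes). Without UIRI replicate 3 limma gave 2 (3.22% of all rows). Mlxipl encodes ChREBP, the factor that switches on fat synthesis when glucose is plentiful (chr5:135089890-135138382, plus strand), and read 1829, 2211 and 1608 in the UIRI libraries against 2363, 2749 and 2671 in the BA libraries. Its lowest BA library was above its highest UIRI library. The log2 fold change was 0.47 (SE 0.12, adjusted p 0.284 from limma and 0.0362 from DESeq2). Over the alternatives its adjusted p ran from 0.0362 to 1.00.

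Dgat2, which makes triglyceride from diacylglycerol (chr7:99153658-99182719, minus strand), read 350.1, 368 and 346 in the UIRI libraries against 449.7, 504 and 505 in the BA libraries. UIRI libraries lay within a narrow range here, and UIRI replicate 3 was the lowest. Its log2 fold change was 0.45 (SE 0.09, adjusted p 0.225 from limma and 0.0275 from DESeq2), and 0.44 without UIRI replicate 3 (adjusted p 0.0411 from limma). Acss2, which makes acetyl-CoA from acetate (chr2:155517948-155585724, plus strand), read 1156, 1277 and 1309 in the UIRI libraries against 1583, 1530.3 and 2054 in the BA libraries. UIRI + BA replicate 3 was the highest. Its log2 fold change was 0.45 (SE 0.12, adjusted p 0.291 from limma and 0.0381 from DESeq2). Me1, a source of NADPH for lipid synthesis, and Fads2, a desaturase of polyunsaturated fatty acids, had log2 fold changes of 0.39 and 0.22 (adjusted p 0.357 and 0.483 from limma). That of Fads2 was 0.13 without UIRI + BA replicate 3. Without UIRI replicate 3, limma gave Me1 an adjusted p of 0.0452, and over its alternatives this p ran up to 1.00. Adjusted p values of Acss2 and Dgat2 ran from 0.0381 to 1.00 and from 0.0275 to 1.00 over theirs.

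The 10 members higher without UIRI replicate 3 at an unadjusted p below 0.05 (13.7% of all rows) were Hmgcs1, Idi1, Sqle, Lss, Hsd17b7, Sc5d, Srebf2, Insig2, Stard4 and Elovl6. The distance of this library to the mean of UIRI replicates 1 and 2 was 0.96 for Idi1, 0.64 for Stard4, 0.56 for Hsd17b7, 0.38 for Sqle and 0.26 for Hmgcs1 on the log2 scale. It was below that mean for others, with -0.51 for Nr1h3, -0.38 for Nr1h2, -0.36 for Fasn and -0.32 for Scap. The mean log2 value of the 11 genes from squalene to cholesterol, relative to the mean of UIRI, was -0.04, -0.08 and 0.12 in the UIRI libraries against 0.05, 0.04 and 0.12 in the BA libraries. UIRI replicate 3 thus equalled the highest BA library, and the groups differed for this list mainly through UIRI replicates 1 and 2.

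Cell type markers also differed between the libraries. In bulk tissue, fewer cells of a type and less RNA per cell cannot be told apart. Of all rows, limma had 5.67% higher and 4.61% lower at an unadjusted p below 0.05. Without UIRI replicate 3 these shares were 13.7% and 11.5%, and 3.22% and 1.79% at an adjusted p below 0.05. With all libraries DESeq2 called 1.49% of genes. At an unadjusted p below 0.05 it had 7.88%, and edgeR 9.93%. Marker lists were chosen with earlier results of these data known. The 12 proximal tubule markers were all present and all had a log2 fold change above 0, 11 of them at an unadjusted p below 0.05 (median 0.73). limma gave 0 of them an adjusted p below 0.05, DESeq2 6 and edgeR 0. When UIRI replicate 3 was left out, limma called 10 of the 12 (3.22% of all rows higher), with a median of 0.97. Without UIRI replicate 2 the number at an unadjusted p below 0.05 was 7 (all rows 6.98% in either direction). Their summed normalized counts were 28003, 32698 and 41002 in the UIRI libraries against 49851, 46415 and 59636 in the BA libraries. Slc27a2, a fatty acid transporter and acyl-CoA synthetase, was the most abundant and read 9557, 11892 and 12412 in the UIRI libraries against 15572, 15998 and 22288 in the BA libraries. In this sum UIRI replicate 3 was the highest UIRI library, as it was for 18 of the 33 members. The 11 macrophage markers all had a log2 fold change below 0 (median -0.28), 3 of them at an unadjusted p below 0.05. limma gave 0 of these markers an adjusted p below 0.05, DESeq2 1 and edgeR 0. With UIRI replicate 3 left out, 10 of the 11 were lower at an unadjusted p below 0.05 and limma called 6, with a median of -0.43. With UIRI replicate 1 left out, 2 were at that threshold (all rows 4.21% in either direction) and the median was -0.18. The number at an unadjusted p below 0.05 also differed between settings with all 6 libraries: 8 with DESeq2, 6 with upper quartile scaling, 5 with edgeR and 4 with quantile normalization. They summed to 129856, 117084 and 90846 in the UIRI libraries against 90695, 99245 and 86437 in the BA libraries, with Lyz2 the most abundant at 81113, 72644 and 55189 in the UIRI libraries against 56524, 62706 and 53234 in the BA libraries. Here UIRI replicate 3 lay within the range of the BA libraries. The 7 myofibroblast markers, led by Col3a1, all had log2 fold changes below 0 (median -0.32), 4 of them at an unadjusted p below 0.05, with 0 at an adjusted p below 0.05 by limma (1 without UIRI replicate 3), 2 by DESeq2 and 0 by edgeR, and summed to 99189, 82835 and 90328 in the UIRI libraries against 60908, 64858 and 79703 in the BA libraries. How far these markers account for the values of the sterol and fatty acid genes was not tested.

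**Figure D5:**
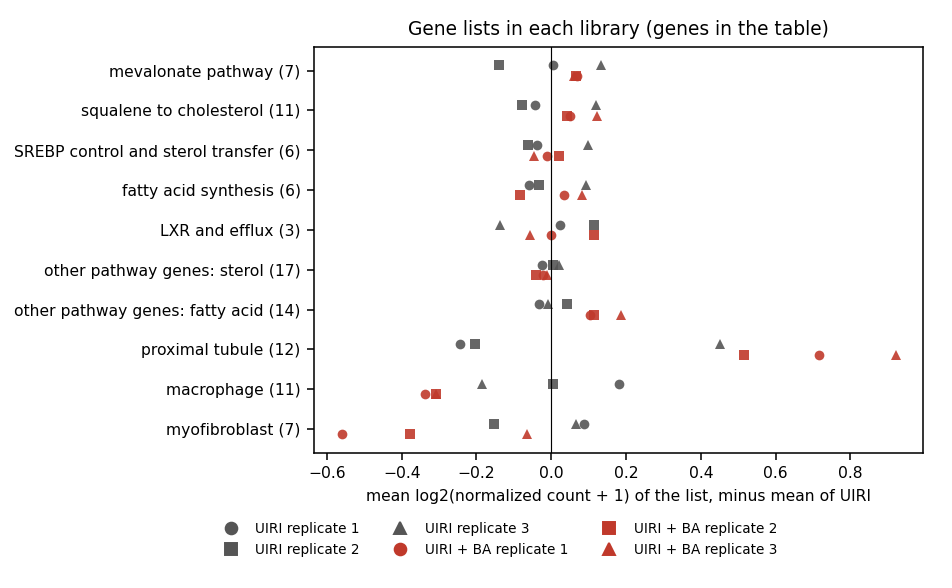
Mean log2(normalized count + 1) of each gene list in each library, minus the mean of the 3 UIRI libraries (UIRI grey, UIRI + BA red, symbol shape by replicate, number of genes in brackets). Member lists lie within 0.14 of the UIRI mean in all 6 libraries, while proximal tubule markers reach 0.92 and macrophage markers -0.34 in UIRI + BA.

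Markers of fat and adrenal tissue, which surround the kidney and are rich in these enzymes, were also looked at. Of 8 adipose markers, 2 were among the rows analysed here: Fabp4, the more abundant and also made by endothelial cells and macrophages, read 1452, 1477 and 1392 in the UIRI libraries against 1444, 1616 and 1474 in the BA libraries, and Plin4 read 24.9, 28.1 and 26.3 in the UIRI libraries against 50.1, 24.8 and 29.2 in the BA libraries. Adipoq, Plin1, Cidec, Lep, Retn and Cfd were not analysed here. Of 9 adrenal cortex markers, Star, Mc2r and Akr1b7 were analysed here and summed to 377, 342 and 334 in the UIRI libraries against 279, 274 and 325 in the BA libraries. Star, the most abundant, read 162, 153 and 164 in the UIRI libraries against 184, 142 and 164 in the BA libraries. Its log2 fold change was 0.02, while those of Akr1b7 and Mc2r were -0.41 and -1.30 (adjusted p 0.536 and 0.479 from limma). The 6 steroid synthesis and identity genes of that list, Cyp11a1, Cyp11b1, Cyp11b2, Cyp21a1, Hsd3b1 and Nr5a1, were not analysed here. Urothelium markers ran unevenly, with mean log2 values relative to UIRI of -0.48, -0.58 and 1.06 in the UIRI libraries against -2.32, -2.25 and 0.48 in the BA libraries. By this mean the highest libraries were UIRI replicate 3 and UIRI + BA replicate 3. The sums of the 8 markers were 1219, 1361 and 1554 in the UIRI libraries against 1236, 1758 and 1832 in the BA libraries, in another order. Most of each sum was Krt20, also an injured tubule gene, which had a log2 fold change of 0.41, while the other 7 had values below 0. The median of the 8 was -1.77, with 0 lower at an unadjusted p below 0.05. With UIRI + BA replicate 3 left out 6 were lower at that threshold (all rows 8.41% in either direction), with a median of -2.78. With UIRI replicate 2 left out 1 was lower (all rows 6.98% in either direction). The median was -0.96 and -0.88 with UIRI replicate 3 or UIRI + BA replicate 2 left out. The 6 thick limb markers, led by Umod, and the 7 collecting duct markers, led by Hsd11b2, had medians of 0.14 and 0.28, with sums of 37746, 27266 and 44029 in the UIRI libraries against 37689.7, 33325 and 46851 in the BA libraries for thick limb and 3609, 3576 and 3789 in the UIRI libraries against 4519, 4979.8 and 3287 in the BA libraries for collecting duct. Leaving out UIRI replicate 2 gave a thick limb median of -0.04, and leaving out UIRI + BA replicate 3 gave -0.02. The collecting duct median ran from 0.13 (UIRI + BA replicate 2 left out) to 0.50 (UIRI + BA replicate 3 left out), and was 0.16 and 0.17 with UIRI + BA replicate 1 or UIRI replicate 3 left out. At an unadjusted p below 0.05, 0 of these 7 were higher with all libraries (all rows 5.67%). The number was 3 with UIRI + BA replicate 3 left out (all rows 8.41% in either direction) and 2 with UIRI replicate 3 left out (all rows 13.7%). The thick limb median was 0.27 and 0.22 with UIRI replicate 3 or UIRI + BA replicate 2 left out.

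The 6 injured tubule markers, led by Spp1, went in both directions: 5 had a log2 fold change above 0 and 1 below. At an unadjusted p below 0.05, 3 were higher (all rows 5.67%) and 1 lower (all rows 4.61%). Lcn2 read 5260.1, 4687 and 4507 in the UIRI libraries against 3137, 3469 and 3539 in the BA libraries, and Havcr1 read 14125, 16614 and 16012 in the UIRI libraries against 18944, 22559 and 21074 in the BA libraries. Groups did not overlap for either, with Lcn2 lower and Havcr1 higher in every BA library. Log2 fold changes were -0.51 for Lcn2 (adjusted p 0.225 from limma and 0.000765 from DESeq2, 0.000765 to 1.00 over the alternatives) and 0.42 for Havcr1 (0.263 and 0.0127, 0.0127 to 1.00). With all libraries limma called 0 of the 6, edgeR 0 and DESeq2 2 (1.49% of genes). Without UIRI replicate 3 limma called 3 (all rows 3.22% higher and 1.79% lower). The 6 proliferation markers, led by Mki67, had a median of 0.01, with 3 above 0 and 3 below. The part of these markers in the values of the members was not tested.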

How the data were processed

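Libraries were grouped by their labels, which name no batch. According to the methods, the authors used HISAT2, FeatureCounts and DESeq2; build, annotation and strand setting are not given in the sources used here. The signal the authors deposited is reads over each library's size factor: 100% of values gave whole reads within 0.01. The authors' fold changes, p-values, FDR and their GO and KEGG tables were not used; 0 columns per library went unused.

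The design named limma for normalized values. limma 3.58.1 (R 4.3.3) with an intensity trend was fitted to log2(value + 1) over 19176 rows (9 symbols on more than 1 row), with no filter or covariate and Benjamini-Hochberg adjustment. Alternatives were upper quartile scaling, quantile normalization, a mean of at least 10, a pseudocount of 0.1, a replicate block, each library left out, and, on recovered reads, DESeq2 1.42.0 and edgeR 4.0.16 with and without its filter. edgeR (quasi-likelihood) called 0 of 17155 genes tested, with 1703 at an unadjusted p below 0.05. The fits were tested on simulated data. All members were named, and of 31 other pathway genes those with an unadjusted p below 0.05; any other singled out was chosen after its values were seen. Members and lists were chosen with earlier results of these data known. Exons and transcripts came from GENCODE M21 and promoters from RefSeq.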

Additional observations from a re-analysis of the deposited data

How the results depend on the processing

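Of the 40 named genes, 24 had the same sign of log2 fold change in all 14 alternatives, among them 17 of the 33 members. Without UIRI replicate 3, 2 members had an adjusted p below 0.05 with limma; the count ran from 0 to 2 as each library was left out and was 0 under each other alternative. Members higher with BA at an unadjusted p below 0.05 numbered 2 as reported, 1 under quantile normalization, upper quartile scaling, DESeq2 and edgeR with or without its filter, 4 with a replicate block, and 0 to 10 as each library was left out; members lower with BA numbered 2, and 1 to 2 as each was left out. As each library was left out, median log2 fold changes ran from -0.01251 to 0.1183 for the mevalonate pathway, from -0.01175 to 0.05704 for SREBP control and sterol transfer, from -0.03451 to 0.06365 for fatty acid synthesis and from -0.0255 to 0.04464 for LXR and efflux. They ran from 0.02755 to 0.06399 for squalene to cholesterol and from 0.02697 to 0.06349 for all members. As each was left out, log2 fold changes that changed sign ran from -0.1552 to 0.02399 for Pmvk, from -0.014 to 0.473 for Idi1, from -0.2058 to 0.1136 for Fdps, from -0.1421 to 0.02186 for Fdft1, from -0.1485 to 0.05361 for Cyp51, from -0.0633 to 0.2814 for Hsd17b7, from -0.07403 to 0.05635 for Ebp, from -0.04218 to 0.06399 for Dhcr7, from -0.1288 to 0.03236 for Scap, from -0.02 to 0.02026 for Acly, from -0.161 to 0.05155 for Fasn, from -0.1602 to 0.1379 for Scd1, from -0.2525 to 0.06349 for Scd2, from -0.1491 to 0.04464 for Nr1h2, from -0.0255 to 0.2921 for Nr1h3 and from -0.1176 to 0.02643 for Abca1. With upper quartile scaling Dhcr7 was at -0.01619 and Scd1 at -4.117e-05, and with edgeR without its filter Dhcr7 was at -0.001052. The cause was not tested. The replicate block called 6 of all rows against 0 without it. With the replicate block 7 of the 11 macrophage markers and 5 of the 8 urothelium markers were lower at an unadjusted p below 0.05, against 3 and 0. Of all 19176 rows, 1002 were lower at that threshold with the block and 884 without it. In the pairing check, deviations from the group means correlated across genes at -0.24, 0.30 and 0.15 for libraries sharing numbers 1, 2 and 3, and from -0.41 to 0.24 for the others, so shared numbers were not taken to mark pairs. Genes are not independent replicates. Over all rows, 213 genes were called by DESeq2 and 962 by limma without UIRI replicate 3, against 0. Rows with an unadjusted p below 0.05 numbered 1971 as reported, 808 without UIRI replicate 1 and 4838 without UIRI replicate 3. Depth was lowest for Fdps, with 18 to 58 reads per library, and then for Idi1, Mvk and Tm7sf2, with at least 126, 128 and 151 reads. Counting error and spread between animals were not separated.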
